A study of Felis catus with 2 samples.

Results

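The bone morphogenetic protein (BMP), activin and SMAD signalling genes of the iridocorneal angle were described in 1 cat with primary congenital glaucoma (PCG) and 1 normal cat. Members were chosen by a rule on gene names, which was set with earlier results of these data known. It covers BMP and GDF ligands, activin and inhibin subunits, SMADs, SMURF ligases, and ACVR, BMPR and TGFBR receptors. Secreted and membrane inhibitors, SKI and SKIL, and the ID genes are also members. The rule found 60 genes among the 19181 single gene names of the deposited table, and no member name was repeated. Polyadenylated RNA came from 1 affected and 1 unrelated, healthy cat, both 2 months old, and the dissected piece held the iridocorneal angle, the ciliary body, and the trabecular meshwork and sclera next to them. The labels give the disease state of each cat but not its genotype, breed or sex. In the colony, which was founded by glaucomatous Siamese cats and outcrossed to domestic shorthaired cats, affected cats that were genotyped were homozygous for a 4-bp insertion in exon 8 of LTBP2, a gene that encodes an extracellular matrix protein related to the proteins that hold TGF-beta in its latent form. Each condition is a single animal and a single library. No difference between the cats could therefore be tested, and all values below describe these 2 libraries.

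BMPs, growth differentiation factors (GDFs) and activins are secreted dimers that assemble type I and type II serine/threonine kinase receptors at the cell surface. The type I receptor phosphorylates receptor SMADs, SMAD1, SMAD5 and SMAD9 in the BMP branch and SMAD2 and SMAD3 in the activin and TGF-beta branch, which enter the nucleus with SMAD4 and switch target genes such as the ID genes on or off. Noggin, chordin, gremlin and follistatin bind ligands outside the cell, and BAMBI, inhibitory SMADs, SMURF ubiquitin ligases and SKI proteins limit the signal at or behind the receptor. In the eye, BMP4 and BMP7 take part in the formation of the lens and the anterior segment, and BMP signalling is known to counter TGF-beta signalling in trabecular meshwork cells.

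Values are FPKM, fragment numbers divided by exon length and by the size of the library, so levels can be set side by side between genes. A gene was used in ratios when it reached 1 FPKM in at least 1 library, which held for 12724 single gene names and for 48 of the 60 members. The log2 ratio is log2 of (affected FPKM + 1) over (normal FPKM + 1), a scale that understates differences of low genes. One fragment on 1 kilobase of effective transcript length was worth 0.0141 FPKM in the normal cat and 0.0148 FPKM in the affected cat. A level of 10 FPKM on that length thus had a counting error of 3.75% in the normal cat and 3.85% in the affected cat, and a level of 1 FPKM one of 11.9% and 12.2%. This error covers fragment sampling only, not the variation between cats.

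The libraries differed in the markers of several cell types. The markers of the tissue itself were present: MYOC, of the trabecular meshwork, was listed at 149.7 FPKM in the normal cat and 301.5 FPKM in the affected cat, and OPTC, of the ciliary epithelium, at 351.0 and 1235 FPKM. Of 7 ciliary epithelium genes 6 were higher in the affected cat (median log2 ratio 1.43), and CA2 was lower, at 370.2 and 111.9 FPKM. Of 6 trabecular meshwork genes 4 were higher (median 1.07), while MGP was listed at 454.9 and 52.9 FPKM and CRYAB had a log2 ratio of −0.22. The summed FPKM of the trabecular meshwork list was 10787 in the normal cat and 9341 in the affected cat. CRYAB alone made up 10017 and 8592 FPKM of it, so the sum says little about the other genes of the list. Photoreceptor genes stood higher in the affected cat in 8 of 8 cases, with a median of 2.80, and lens genes in 10 of 12 cases, with a median of 1.35. The summed FPKM of the lens list was 47976 in the normal cat and 40763 in the affected cat, with CRYAA listed at 22978 and 0. Vascular endothelium genes were lower in 9 of 9 cases (median −1.74), corneal and conjunctival epithelium genes in 9 of 9 (median −2.25) and cell division genes in 8 of 8 (median −2.23). Genes of the stroma and sclera had a median of −4.86 over 7 genes. Medians of −0.41, −0.56 and −0.84 were found for smooth muscle, nerve and Schwann cells, and pigment cells. Retina, lens and cornea are not named in the description of the dissected piece, and how alike the pieces of both cats were is not stated. In bulk tissue, fewer cells of a type and less RNA per cell cannot be told apart.

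Most members, 37 of the 48 used, were less than 2-fold apart between the cats. Of the 48 members used, 4 were at least 2-fold higher in the affected cat (TGFBR3, FSTL4, ID1 and CHRDL1), which is 8.33% of them, where 6.63% of all 12724 genes were. Another 7 were at least 2-fold lower (BMP3, GDF10, BMP1, ACVRL1, GREM1, FST and CHRD), or 14.6%, where 8.46% of all genes were. In either direction the share was 22.9% of the members and 15.1% of all genes. The median log2 ratio was −0.18 over the 48 members and −0.024 over all genes. Log2 ratios within 0.5 of 0 were found for 29 members, or 60.4%, and for 60.9% of all genes. Across the 48 members log2(FPKM + 1) in the 2 libraries were related with r = 0.90 (Pearson) and rho = 0.81 (Spearman), where both were 0.89 across all genes. Genes in these correlations share the same pair of libraries and are not independent replicates.

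**Figure D1:**
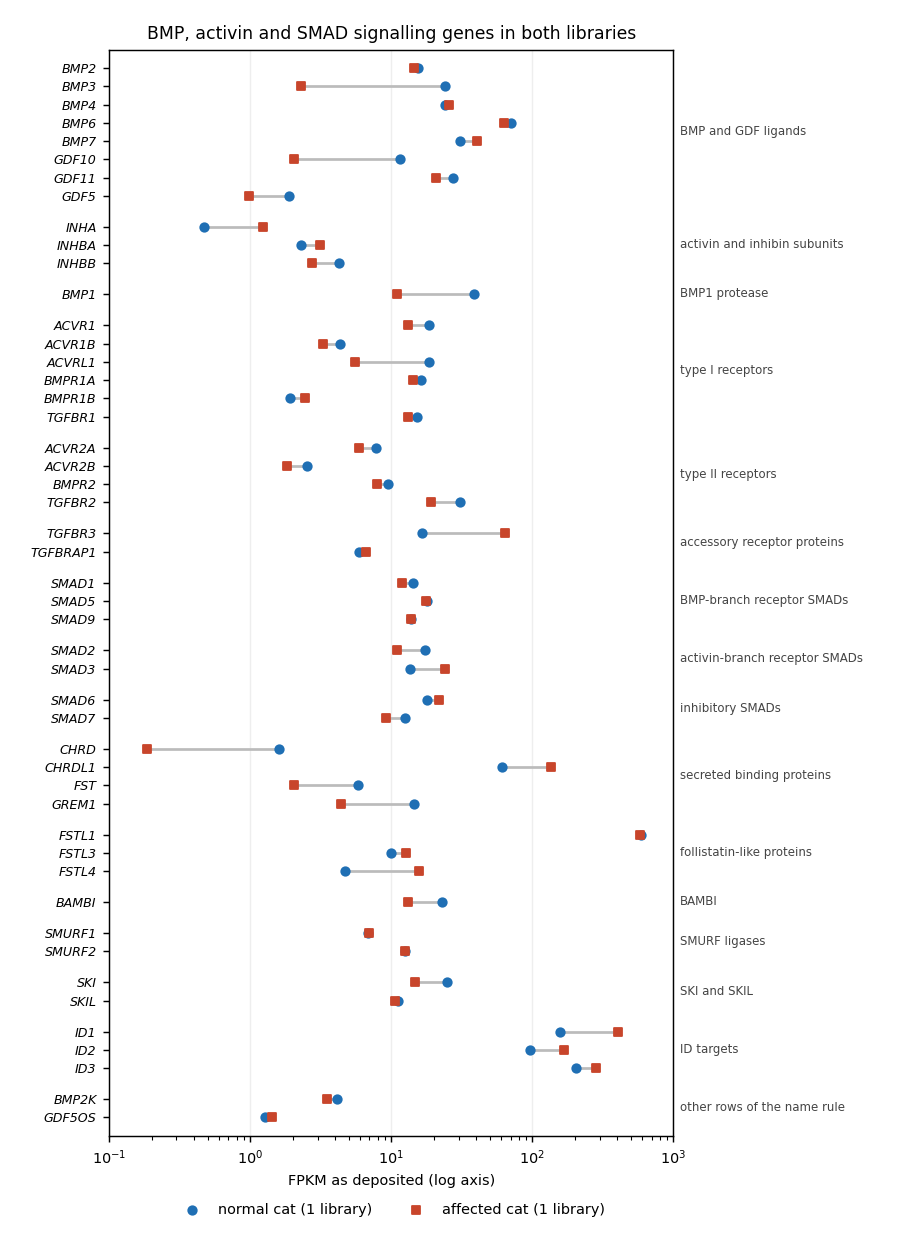
FPKM of the 48 members with at least 1 FPKM in a library, on a log axis, grouped by role, with a circle for the normal and a square for the affected cat and a line joining them; there are no error bars because each condition has 1 library. FSTL1 lies furthest to the right in both cats, and the longest lines among the genes lower in the affected cat belong to BMP3 and CHRD.

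Expression levels of the members ranged widely. FSTL1, a secreted glycoprotein of mesenchymal cells, was the most abundant member at 587.1 FPKM in the normal cat and 581.4 FPKM in the affected cat, above 99.0% of the genes used in both. FSTL1 and ID1 to ID3 together made up 60.2% of the summed FPKM of the members in the normal cat and 67.6% in the affected cat. All members together held 0.267% and 0.316% of the summed FPKM of the table. The median level of the 48 members was 14.4 FPKM in the normal cat and 12.2 FPKM in the affected cat, against 10.4 and 10.3 FPKM for all genes used.

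Among the ligands, BMP6 was the most abundant, followed by BMP7. BMP6, known as a regulator of iron metabolism as well as of bone, was listed at 70.7 FPKM in the normal cat and 62.5 FPKM in the affected cat. BMP7 was listed at 30.7 and 40.4 FPKM. BMP4, a ligand of the developing anterior segment, had 24.0 and 25.5 FPKM, and BMP2, a potent inducer of bone formation, had 15.5 and 14.6 FPKM. GDF11, a ligand that signals through activin receptors, had 27.3 and 20.8 FPKM. The levels of these 5 ligands therefore lay close together in the 2 cats, with log2 ratios from −0.38 to 0.39.

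BMP3 and GDF10, closely related ligands of a separate branch of the family, were the exceptions. BMP3, an atypical BMP known to oppose bone formation, was listed at 24.1 FPKM in the normal cat and 2.29 FPKM in the affected cat. Its log2 ratio of −2.93 was the lowest of all members, and only 0.527% of the genes used had a lower one. In the normal cat BMP3 stood at the level of BMP4, and in the affected cat far below it. GDF10 was listed at 11.6 FPKM in the normal cat and 2.04 FPKM in the affected cat, a log2 ratio of −2.05. GDF5, a ligand of joint formation, was low in both libraries, at 1.89 and 0.976 FPKM, and its span is also listed for GDF5OS, the gene on the opposite strand, at 1.28 and 1.43 FPKM. The library kit does not mark strand, so reads of this pair cannot be told apart. The 8 ligands with at least 1 FPKM had a median log2 ratio of −0.28, and 2 of them were at least 2-fold lower and none at least 2-fold higher, where 8.46% and 6.63% of all genes were. The other 7 ligands were under 1 FPKM in both libraries. Of these, GDF9 and GDF15 were detected in both. BMP10 was listed at 0.0339 FPKM in the normal cat and 0.0121 FPKM in the affected cat, where 1 fragment on 1 kilobase was worth 0.0148 FPKM. GDF2 was listed at 0.193 FPKM in the normal cat and at 0 in the affected cat, and BMP15, GDF3 and GDF6 were listed at 0 in both. A value of 0 in this table is not read as absence.

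The stroma and sclera list, in which COL1A1 was listed at 2476 FPKM in the normal cat and 41.8 FPKM in the affected cat and KERA at 264.7 and 0.190 FPKM, was lower in the affected cat in the same direction as BMP3, GDF10 and BMP1. In that list 5 of 7 genes were at least 2-fold lower, FMOD had 351.9 and 416.0 FPKM, and COL1A2 was listed at 0 in the normal cat and at 447.2 FPKM in the affected one. The summed FPKM of the list was 4673 in the normal cat and 1016 in the affected cat. Its part in the ligand values was not tested.

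BMP1 carries the name of the family but encodes a metalloprotease, which removes the carboxy-terminal propeptide of fibrillar procollagens and also cleaves chordin. It was listed at 38.6 FPKM in the normal cat and 11.0 FPKM in the affected cat, a log2 ratio of −1.72. This level exceeded 84.9% of the genes used in the normal cat and 52.2% in the affected one.

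Activin and inhibin subunits were low in both cats. INHBA, the subunit of activin A, was listed at 2.30 FPKM in the normal cat and 3.12 FPKM in the affected cat, and INHBB, the subunit of activin B, at 4.28 and 2.74 FPKM. INHA, which turns activin subunits into inhibins, was listed at 0.470 and 1.24 FPKM. Its log2 ratio was 0.61 with a pseudocount of 1 FPKM and 1.23 with 0.1 FPKM, so the choice of pseudocount decides whether INHA counts as 2-fold higher. The summed FPKM of the 5 subunits was 7.05 in the normal cat and 7.11 in the affected cat. INHBC was listed at 0 in the normal cat and 0.0113 FPKM in the affected cat, and INHBE at 0 in both.

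The 6 type I receptors with at least 1 FPKM had a median log2 ratio of −0.25. That of the 4 type II receptors was −0.34, against −0.024 over all genes. ACVRL1 was far lower, whereas TGFBR3, described below, was higher. ACVRL1, also known as ALK1, is the type I receptor for BMP9 and BMP10 on vascular endothelium. It was listed at 18.4 FPKM in the normal cat and 5.50 FPKM in the affected cat, a log2 ratio of −1.58. In the normal cat its level was about that of ACVR1, at 18.5 FPKM, and in the affected cat it was below ACVR1, at 13.0 FPKM. Relative to the other BMP type I receptors combined (ACVR1, BMPR1A and BMPR1B), the ACVRL1 level was 0.502 in the normal cat and 0.185 in the affected cat. ACVR1B, an activin receptor whose locus begins 46.2 kb from the end of the ACVRL1 locus on chromosome B4, was listed at 4.33 and 3.29 FPKM.

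Endothelial markers moved in the same direction as ACVRL1. All 9 genes of the vascular endothelium list were lower in the affected cat and 6 of them at least 2-fold, among them CDH5, with 20.5 FPKM in the normal cat and 5.61 FPKM in the affected cat, and TEK, with 12.1 and 2.95 FPKM. The summed FPKM of the list was 168.9 in the normal cat and 55.1 in the affected cat, and none of its genes was at 0. GDF2, which encodes BMP9, and BMP10 were themselves under 1 FPKM in both cats. ENG, the co-receptor of ACVRL1 on endothelium, was listed at 41.0 and 16.7 FPKM, a log2 ratio of −1.25. The part of endothelial RNA in the ACVRL1 value was not tested.

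The other type I receptors differed less. BMPR1A was listed at 16.3 FPKM in the normal cat and 14.2 FPKM in the affected cat, TGFBR1, the type I receptor for TGF-beta, at 15.2 and 13.2 FPKM, and BMPR1B at 1.92 and 2.43 FPKM. ACVR1C was under 1 FPKM in both. Summed over their members, the activin and TGF-beta type I receptors had 0.359 times the FPKM of the BMP type I receptors in the normal cat and 0.476 times in the affected cat. The BMP sum includes ACVRL1 and was 55.0 and 35.2 FPKM. Without ACVRL1 the BMP sum was 36.6 and 29.7 FPKM, beside 19.7 and 16.7 FPKM for the activin and TGF-beta receptors. The 4 type II receptors were all lower in the affected cat, with log2 ratios from −0.64 to −0.23, and none reached 2-fold, where 51.7% of all genes were lower and 84.9% were under 2-fold. TGFBR2, the type II receptor for TGF-beta, was the most abundant of them at 30.5 FPKM in the normal cat and 19.2 FPKM in the affected cat. BMPR2, which binds BMPs, had 9.47 and 7.90 FPKM, ACVR2A 7.83 and 5.86 FPKM, and ACVR2B 2.55 and 1.83 FPKM.

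TGFBR3 (betaglycan), a membrane proteoglycan that presents TGF-beta to its receptors and binds inhibin, had the highest log2 ratio of all members. It was listed at 16.6 FPKM in the normal cat and 63.5 FPKM in the affected cat, a log2 ratio of 1.87, which was above that of 98.2% of the genes used. TGFBR3 and TGFBR2 thus exchanged their order, and the FPKM of TGFBR3 was 0.546 times that of TGFBR2 in the normal cat and 3.31 times in the affected cat. Another locus with an Ensembl identifier alone overlaps the span of TGFBR3. TGFBRAP1, which encodes a TGF-beta receptor-associated protein, had 5.95 and 6.62 FPKM. Ciliary epithelium and photoreceptor lists were higher in the same cat as TGFBR3, CHRDL1 and FSTL4. The summed FPKM of the former was 2197 in the normal cat and 6390 in the affected cat, that of the latter 335.1 and 1572, and none of their genes was at 0. Their part in these values was not tested.

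**Figure D2:**
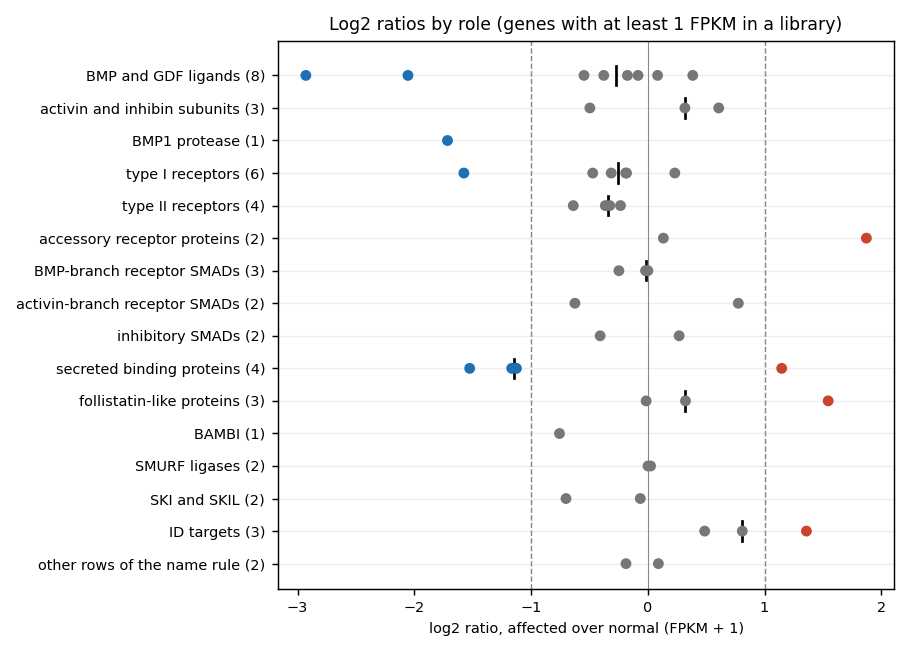
Log2 ratios, affected over normal, of the 48 members used, by role, with the number of genes of each role in parentheses, a black bar at the median of roles with at least 3 genes and dashed lines at 2-fold. Type II receptors lie between −0.64 and −0.23, the 4 genes of the secreted binding protein row (CHRDL1, GREM1, FST and CHRD) lie outside the dashed lines, and the ID genes lie between 0.49 and 1.36.

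The SMAD transducers of the BMP branch were at nearly equal levels in both cats. SMAD5 was listed at 17.8 FPKM in the normal cat and 17.6 FPKM in the affected cat, SMAD9 at 13.9 FPKM in both and SMAD1 at 14.3 and 11.9 FPKM. In the activin and TGF-beta branch the 2 SMADs stood in opposite order in the 2 cats. SMAD2 had 17.4 FPKM in the normal cat and 11.0 FPKM in the affected cat, and SMAD3 had 13.5 and 23.9 FPKM. The FPKM of SMAD3 was therefore 0.776 times that of SMAD2 in the normal cat and 2.18 times in the affected cat, although neither gene reached 2-fold between the cats, with log2 ratios of −0.62 and 0.78. Their sum was 31.0 FPKM in the normal cat and 34.8 FPKM in the affected cat. The locus of SMAD4, the partner of both branches, is joined in the table with ELAC1, and so SMAD4 is outside the rule. This joint locus was listed at 38.7 and 38.4 FPKM. GDF1 is likewise joined with CERS1, at 3.21 and 1.97 FPKM.

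The 7 members that limit the signal at or behind the receptor were under 2-fold, as were 84.9% of all genes. SMAD6, which mainly restrains the BMP branch, was listed at 17.9 FPKM in the normal cat and 21.8 FPKM in the affected cat, and SMAD7, which restrains both branches, at 12.5 and 9.15 FPKM. SMURF1 had 6.86 and 6.99 FPKM and SMURF2 12.4 and 12.5 FPKM. SMAD9, SMURF1 and SMURF2 had log2 ratios within 0.03 of 0, whose sign turned when both libraries were rescaled to the same sum. BAMBI, a pseudoreceptor without a kinase domain, was listed at 23.0 FPKM in the normal cat and 13.2 FPKM in the affected cat. SKI, a nuclear co-repressor of SMADs, was listed at 24.7 and 14.8 FPKM, whereas the related SKIL had 11.1 and 10.6 FPKM. The log2 ratios of BAMBI and SKI were −0.76 and −0.70.

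Of the chordin, gremlin and follistatin genes, 4 had at least 1 FPKM, and 3 of these were at least 2-fold lower and 1 at least 2-fold higher in the affected cat, where 8.46% and 6.63% of all genes were. Some other secreted binders were under 2-fold, among them FSTL3, an activin-binding protein, with a log2 ratio of 0.32, and TWSG1 (twisted gastrulation), a BMP-binding protein outside the name rule, at 53.4 and 29.1 FPKM (−0.86). BMPER and SOSTDC1, also outside the name rule, were at least 2-fold lower, with log2 ratios of −1.64 and −1.17. CHRDL1, a chordin-like BMP antagonist that in humans underlies X-linked megalocornea, was the most abundant of the 4. It was listed at 60.7 FPKM in the normal cat and 135.7 FPKM in the affected cat, a log2 ratio of 1.15. GREM1 (gremlin), which binds BMP2, BMP4 and BMP7, was listed at 14.5 and 4.39 FPKM, a log2 ratio of −1.53. FST (follistatin), which neutralises activins, was listed at 5.84 and 2.05 FPKM, a log2 ratio of −1.17. CHRD (chordin) was low, at 1.59 FPKM in the normal cat and 0.186 FPKM in the affected cat, a log2 ratio of −1.13. CHRDL2 was under 1 FPKM in both.

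The balance among the chordin, gremlin and follistatin genes therefore differed between the libraries. CHRDL1 made up 72.6% of the summed FPKM of the 6 members of this group in the normal cat and 94.8% in the affected cat. The sum was 83.7 FPKM in the normal cat and 143.1 FPKM in the affected cat, and without CHRDL1 it was 22.9 and 7.38 FPKM. The ratio of CHRDL1 to GREM1 was 4.19 in the normal cat and 31.0 in the affected cat. The corneal and conjunctival epithelium list, whose summed FPKM was 589.9 in the normal cat and 27.6 in the affected cat, and the stroma and sclera list were lower in the same cat as GREM1, FST and CHRD, and their part in these values was not tested. The median log2 ratio of the 4 genes was −1.15, opposite in direction to their sum, which CHRDL1 decides. It was −0.63 with no minimum level and −0.19 under a minimum mean of 5 FPKM, which FST and CHRD did not reach.

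The follistatin-like genes are named for a shared domain and do not all bind activin. FSTL3, which does, was listed at 9.92 FPKM in the normal cat and 12.7 FPKM in the affected cat. FSTL4 was listed at 4.72 FPKM in the normal cat and 15.7 FPKM in the affected cat, a log2 ratio of 1.55. FSTL1 had a log2 ratio of −0.014. FSTL5 is joined in the table with a 5S_rRNA name, at 3.46 and 2.56 FPKM, and is outside the rule.

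The ID genes encode helix-loop-helix proteins without a DNA-binding region, which sequester other transcription factors and are direct targets of the BMP-branch SMADs. All 3 that were listed under a single name stood higher in the affected cat, as did 48.3% of all genes. ID1 was listed at 156.5 FPKM in the normal cat and 402.9 FPKM in the affected cat, a log2 ratio of 1.36 that was above that of 96.3% of the genes used. ID2 had 95.7 and 168.5 FPKM, and ID3 had 202.3 and 284.0 FPKM, with log2 ratios of 0.81 and 0.49 that did not reach 2-fold. Their order changed with the library, since ID3 was the most abundant in the normal cat and ID1 in the affected cat. The FPKM of ID1 was 0.774 times that of ID3 in the normal cat and 1.42 times in the affected cat. The median log2 ratio of the 3 genes was 0.81, and their summed FPKM was 454.4 in the normal cat and 855.4 in the affected cat.

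Immediate early genes, which respond within minutes to many stimuli, were higher in the same library. All 7 of that list were higher in the affected cat and 6 of them at least 2-fold, with a median log2 ratio of 3.02, and EGR1 was listed at 11.4 and 189.4 FPKM. The summed FPKM of the list was 87.4 in the normal cat and 679.8 in the affected cat. Cell division genes stood lower, with a summed FPKM of 97.4 and 13.6. The part of either in the ID values was not tested.

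**Figure D3:**
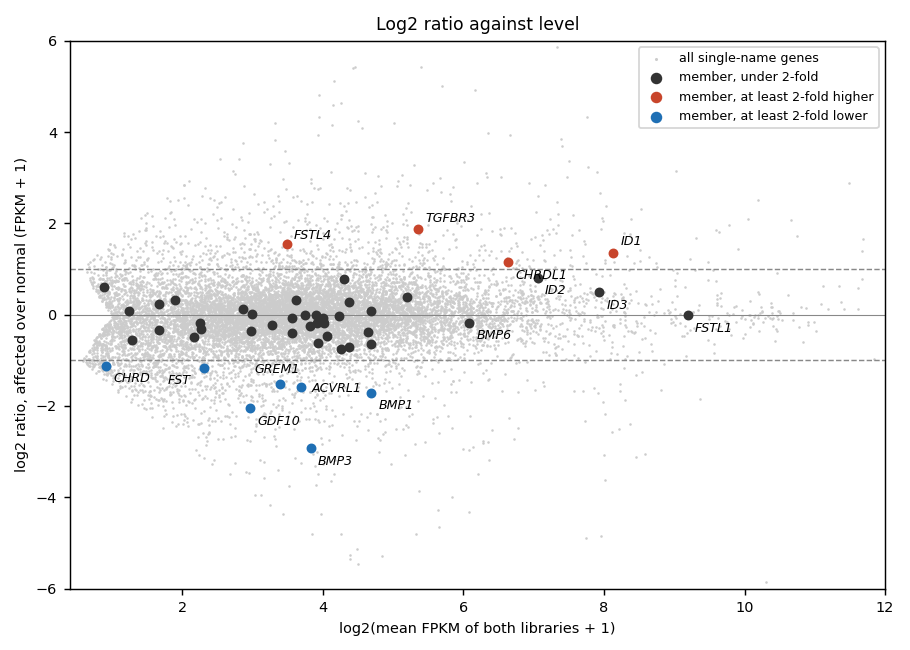
Log2 ratio, affected over normal, against log2 of the mean FPKM + 1; grey points are all single-name genes with at least 1 FPKM in a library (22 genes, none a member, lie outside the axes), coloured and black points are the 48 members, and dashed lines mark 2-fold. Among the 4 higher members ID1 is the most abundant, whereas the 7 lower ones all have a mean below that of BMP6.

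Other genes of the pathway were taken from a list of 36 that the name rule does not cover. Of these, 28 were listed under a single name and 23 reached 1 FPKM, with a median log2 ratio of −0.24. At least 2-fold higher in the affected cat were 2 genes, among them TOB1, which encodes a repressor of BMP signalling, at 40.7 and 141.4 FPKM (log2 ratio 1.77). At least 2-fold lower were 4 genes, ENG, DLX5, BMPER and SOSTDC1. These numbers are 8.70% and 17.4% of the 23, where 6.63% and 8.46% of all genes were higher and lower. DLX5, a homeobox gene induced by BMPs in bone, was listed at 3.41 and 0.300 FPKM (−1.76). BMPER, a secreted BMP-binding regulator of endothelium, was listed at 4.07 and 0.623 FPKM (−1.64), and SOSTDC1, an antagonist of BMPs and Wnt, at 3.80 and 1.14 FPKM (−1.17). The remaining 17 were under 2-fold. Among them, the transcription factor gene ATOH8 was listed at 6.09 and 10.8 FPKM (0.74), MSX2 at 3.63 and 1.83 FPKM (−0.71) and HEY1 at 17.0 and 11.1 FPKM (−0.57). MSX1, also among the 17, was listed at 1.17 and 0.0988 FPKM, and the pseudocount decides its side of the threshold. Its log2 ratio was −0.98 with the pseudocount of 1 FPKM and −2.68 with 0.1 FPKM, an alternative chosen after seeing the data. With 0.1 FPKM, 5 of the 23 genes were lower and 2 higher, where 11.9% of all genes were lower and 8.83% higher. The genes HFE2, DAND5, SOST, NODAL and MSTN were under 1 FPKM in both libraries.

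**Figure D4:**
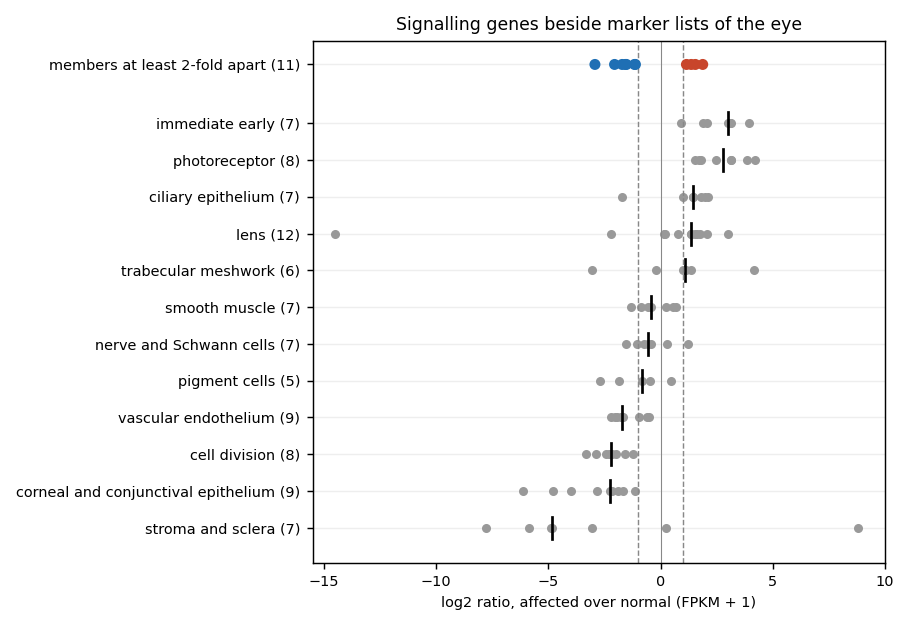
Log2 ratios, affected over normal, of the 11 members at least 2-fold apart (top row) above those of the marker lists, with the number of genes in parentheses, black bars at the list medians and dashed lines at 2-fold. The members span −2.93 to 1.87, inside the span of the list medians, which run from −4.86 for stroma and sclera to 3.02 for immediate early genes; the far left lens point is CRYAA and the far right stroma point COL1A2, each listed at 0 in 1 library.

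The 11 members at least 2-fold apart lie on different chromosomes for the most part. On felCat5, with positions as the table lists them, TGFBR3 is on chromosome C1 from 76592484 to 76802685, ID1 on A3 from 26910542 to 26911960, CHRDL1 on X from 89584675 to 89704757 and FSTL4 on A1 from 110755953 to 111345326. BMP3 is on B1 from 139364722 to 139393056, BMP1 on B1 from 34081873 to 34118007, GDF10 on D2 from 48040245 to 48054850 and GREM1 on B3 from 70028731 to 70032742. ACVRL1 is on B4 from 80946160 to 80960596, FST on A1 from 199561265 to 199565731 and CHRD on C2 from 85390880 to 85400570. GDF10 begins 8.50 kb after the end of GDF2, a neighbour under 1 FPKM in both libraries, and SMAD6 lies 256.7 kb from SMAD3 with a log2 ratio of 0.27 against 0.78. Other loci of the table overlap the span of 13 members, among them CHRDL1, where a 5S_rRNA locus lies, and ACVRL1 and TGFBR3. BMP2K, the gene of a kinase induced by BMP2, matches the name rule without being a ligand, and was listed at 4.09 and 3.48 FPKM.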

How the data were processed

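RNA was prepared with the TruSeq RNA v2 kit from 500 ng of total RNA. Reads were aligned by the authors with TopHat 2.0.9 (at most 2 mismatches) to felCat5, guided by Ensembl gene predictions, and the deposited FPKM values were calculated by the authors with Cufflinks 2.1.1 and cummeRbund 2.4.1. Scaling between libraries and filters on loci are not given in the sources used here.

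Rows with a single gene name were used, and where a name was repeated the row with the higher mean. Log2 ratios used a pseudocount of 1 FPKM and no rescaling. Every member with a mean of at least 1 FPKM was named, and INHA and CHRD because they reached 1 FPKM in 1 library. Single values of 2 genes are not reported here. The members, role groups, marker and pathway lists were chosen with earlier results of these data known. Symbols were matched to RefSeq for a later cat assembly (59 of 60), from which no coordinates were taken.

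The value of 1 fragment was estimated at loci without a name, where low values rise in steps (1499 in the normal, 1178 in the affected library), and 96.3% and 95.8% of these values lay within 0.03 of a whole fragment. A level of 1 FPKM on 1 kilobase of effective length then stood for 71.1 and 67.5 fragments. The procedures were tested on simulated data. Known changes were placed in genes above a set minimum level, without variation between cats, so this test checks the calculation only. Alternatives were another pseudocount, rescaling, other minimum levels, a 4-fold threshold, summed rows, and removal of genes at 0 in exactly 1 library. Python 3.11.15, numpy 2.4.6, pandas 2.3.3, scipy 1.17.1 and matplotlib 3.10.9 were used.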

Additional observations from a re-analysis of the deposited data

How the results depend on the processing

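The numbers of members at least 2-fold higher and lower, 4 and 7, stayed within 1.5 times of these values under each alternative except the threshold itself: 4-fold left 0 higher and 2 lower (BMP3 and GDF10), where 1.49% and 1.82% of all genes were past it. Under a minimum mean of 5 FPKM the numbers were 4 and 5, where 6.96% of all genes were higher and 6.23% lower. With a pseudocount of 0.1 FPKM the numbers were 5 and 7, where 8.83% of all genes were higher and 11.9% lower. With no minimum the shares of all genes were 4.40% and 5.61%, because low genes entered, and the median log2 ratio of the members was −0.074. The median of the ligands was −0.083 with no minimum and −0.17 under a minimum mean of 5 FPKM. That of the activin and inhibin subunits was 0.42 with a pseudocount of 0.1 FPKM and 0.016 with no minimum. The secreted binding proteins had a median of −1.58 with a pseudocount of 0.1 FPKM, −1.31 with each library rescaled to a sum of 1000000, −0.63 with no minimum and −0.19 under a minimum mean of 5 FPKM, which leaves fewer genes. The 48 members used were recomputed under 4 alternatives. Among these 192 log2 ratios, 20 shifted by 0.1 or more, 3 changed sign (SMAD9, SMURF1 and SMURF2) and 1 crossed 2-fold (INHA). All of these changes came from the pseudocount of 0.1 FPKM and the rescaling to a sum of 1000000. Summing rows could not change a member, because no member name was repeated. Dividing the affected library by the median ratio shifted log2 ratios by at most 0.006. Leaving out BMP2K and GDF5OS, or adding 3 loci that join a name of the rule to another gene, was chosen after seeing the data and left the numbers at 4 and 7. Neither step could change them, because none of these genes and loci was 2-fold apart. Removing genes at 0 in exactly 1 library could not either, because no member used was at 0. No paired analysis was possible because only 1 cat was sequenced per disease state.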
